A study of Homo sapiens with 2 samples.

Results

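The genes described here are 49 genes of the interferon system, comprising the interferon receptors, transcription factors of the STAT and IRF families, and genes that interferon switches on, with SAMD9 among them. They were chosen by name, with earlier results of these data known. A probe set was used only where the platform annotation assigned it to 1 of these genes alone, older symbols accepted. Of the 49 genes, 48 had at least 1 such probe set among the 19775 genes read on the array, and STAT2 was not analysed here. The RNA came from AGS, a human gastric adenocarcinoma cell line. AGS.W carried a lentiviral vector with the coding region of WTX, a tumour suppressor that restrains Wnt signalling, and infected cells were selected with puromycin. AGS.veh was the negative control, whose vector is not described. For each culture the RNA was read on 1 array, of the Affymetrix U133 Plus 2.0 type. There was therefore no replicate, no test and no error beyond the disagreement of probe sets, and each difference below compares 2 cultures. Values are log2 signals as deposited, and a difference is the log2 signal in AGS.W minus that in AGS.veh, so that a doubled signal adds 1. Each gene is given by its brightest probe set unless stated. An array of a whole culture cannot tell less RNA per cell from fewer cells that express the gene.

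Interferons are secreted proteins that warn cells of viruses. Type I interferons bind the receptor made of IFNAR1 and IFNAR2, and interferon gamma binds that of IFNGR1 and IFNGR2. Kinases of the JAK family on these receptors then activate STAT proteins, which enter the nucleus. In the type I response they join IRF9 and bind a short promoter sequence, the interferon-stimulated response element (ISRE). The genes under such elements sense viral RNA, block its translation, degrade it, trap budding virus or tag proteins with ISG15, and many are also expressed at a low level without any interferon. SAMD9 and its neighbour SAMD9L encode large cytoplasmic proteins that restrict poxviruses and slow cell growth.

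The median log2 signal over 54613 probe sets was 4.02 for AGS.W against 4.03 for AGS.veh, and the median difference over all genes was 0.00. WTX (AMER1) had a signal of 3.70 for AGS.W against 3.86 for AGS.veh on its only probe set, both dim. It is not known whether that probe set reads the vector's coding region, so the overexpression could not be checked on these arrays. The paper presents AGS.W as a WTX overexpression line, with a Western blot of the protein. The protocol label speaks of brain tissue, whereas the other labels name AGS cells. The epithelial keratins KRT8 and KRT18 had log2 signals of 9.76 and 10.87 (AGS.W) and of 10.13 and 11.17 (AGS.veh), while KRT19 and CDH1 lay below the array medians on both arrays. Of the 8 epithelial markers 5 were higher in AGS.W, among them EPCAM with 6.88 and 5.96 and MUC1 with 9.91 and 9.13, and 3 were lower. Over 9 measured markers of brain cells the signals ran from 1.69 to 6.19, with 5 at or above the medians in the mean of both arrays and GFAP at 3.44 and 2.97. Of 9 measured leukocyte markers, 2 reached the medians, and PTPRC, which marks all leukocytes, was at 1.85 for AGS.W against 1.63 for AGS.veh. None of these leukocyte markers was 2-fold apart. Of 5 markers of plasmacytoid dendritic cells, a main source of interferon in blood, CLEC4C was at 1.86 on both arrays, and TCF4, which other cells also express, was at 4.58 for AGS.W against 5.75 for AGS.veh. Of 7 markers of endothelial cells and fibroblasts, 3 reached the medians, and COL1A1 was at 7.89 and 6.95. Whether other cells had a part in the differences below was not tested.

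The largest differences among the interferon genes pointed in opposite directions, with ISG20 and ISG15 higher in AGS.W and SAMD9 lower. Of the 48 genes, 2 were at least 2-fold higher, against 1.22% of all genes on the array, and 3 were at least 2-fold lower, against 1.35%. Of these lower genes, GBP1 and TRIM22 lay below the medians on both arrays and SAMD9 did so in AGS.W. With dim signals raised to the array median, 1 gene was still 2-fold lower. The 2-fold higher genes make up 4.17% of the 48 and the 2-fold lower genes 6.25%, and each gene counts for about 2 percentage points of these shares. Because the list was made with earlier results of these data known, the shares describe the list and are no test. By any amount, 21 genes were higher, or 43.8%, against 44.7% of all genes. In the other direction 26 genes were lower, or 54.2%, against 45.1%, and XAF1 was equal on both arrays. The median difference of the 48 genes was -0.10, with the middle of the distribution between -0.35 and 0.17. When the 34 genes whose mean signal reached the array medians were taken alone, 17 were higher and 17 lower. Of these, 2 were at least 2-fold higher, against 1.82% of all genes of such signal. The 1 gene 2-fold lower, against 1.81%, was SAMD9, which reached this signal through AGS.veh alone, so that nothing is read from its count.

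**Figure D1:**
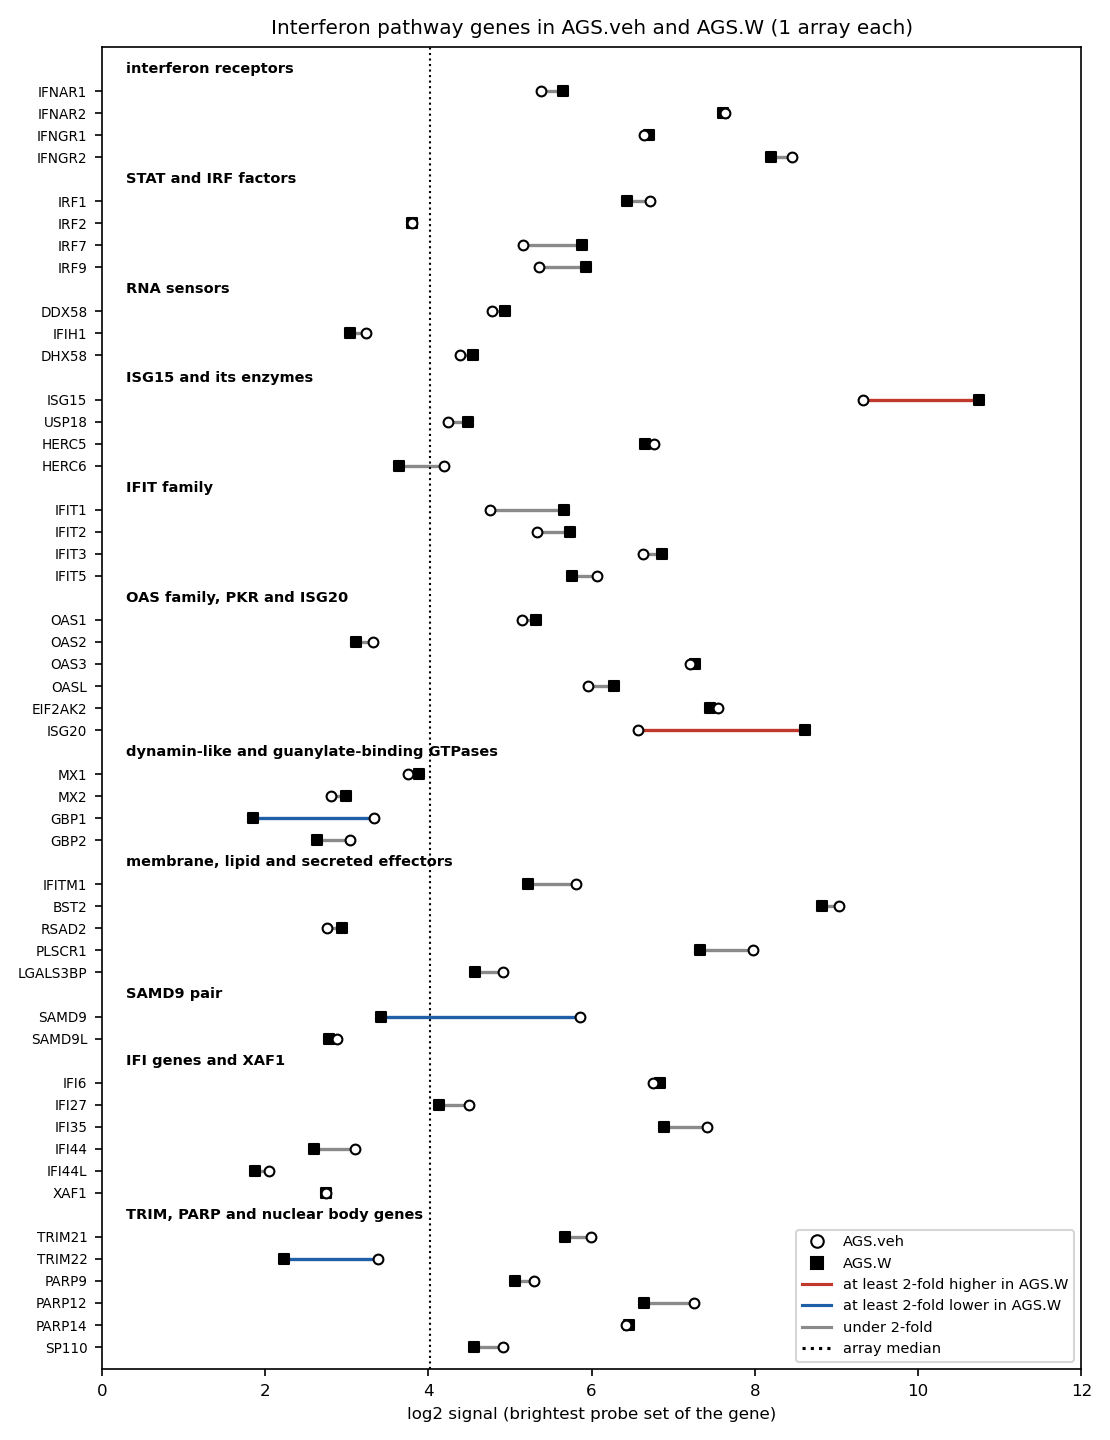
Log2 signal (horizontal axis) of the brightest probe set of each of the 48 genes in AGS.veh (open circles) and AGS.W (filled squares), 1 array each, grouped by role, with the mean of the array medians as a dotted line. ISG20 and ISG15 are joined by long red lines with AGS.W to the right, and SAMD9, GBP1 and TRIM22 by blue lines with AGS.W to the left.

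To show what these genes share in sequence, the promoter windows of RefSeq (assembly GRCh38.p14), which run from 250 bases before to 50 bases after each annotated start, were searched for the core letters of the ISRE, GAAA followed by any 2 bases and again GAAA, on both strands. Windows were at hand for 38 of the 49 genes, and 25 of these held the core, or 65.8%, compared with 4.38% of all 27305 genes with a window. The genes without a window here were DHX58, GBP2, IFIT2, IFNAR2, IRF2, IRF7, MX2, OAS2, OASL, TRIM22 and USP18. The genes were listed for their response to interferon, so this share describes the list and says nothing of the lines. The stretches below show the core in capitals with 20 bases on each side, written 5′ to 3′ on the strand of the gene. They are shown for the members that differed most in each direction, and for BST2 as a member that differed little.
ISG20, chr15:88638927-88638976, + strand: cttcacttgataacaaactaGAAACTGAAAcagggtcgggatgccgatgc
ISG15, chr1:1013370-1013419, + strand: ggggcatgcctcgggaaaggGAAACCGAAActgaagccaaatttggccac
IFIT1, chr10:89392500-89392549, + strand: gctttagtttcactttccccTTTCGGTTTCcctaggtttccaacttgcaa
BST2, chr19:17405731-17405780, - strand: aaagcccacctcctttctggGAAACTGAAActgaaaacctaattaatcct
GBP1, chr1:89065306-89065355, - strand: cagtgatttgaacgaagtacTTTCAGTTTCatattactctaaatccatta
SAMD9, chr7:93118086-93118135, - strand: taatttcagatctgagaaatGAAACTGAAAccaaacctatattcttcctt
The same core letters, GAAACTGAAA, stand in the windows of ISG20 and of SAMD9, the genes with the highest and the lowest difference of the list, and on the opposite strand in that of GBP1. Read on either strand, these 10 letters occurred in 12 of the genes, of which 4 were higher and 8 lower in AGS.W, with differences from -2.44 to 2.05. In BST2 a pair of copies overlap by 4 bases, of which the capitals mark the first, and its difference was -0.21. The core shown for ISG15 begins 107 bases before the start, that of ISG20 69 bases and that of SAMD9 136 bases before it. Of the 37 genes with both a window and a probe set, the 25 with a core had a median difference of -0.20 and the 12 without a core one of -0.05. All 4 genes that were at least 2-fold apart and had a window held a core, and TRIM22 had no window here. Of the 33 genes with a window that were under 2-fold apart, 21 held a core, or 63.6%. One of the 4, GBP1, was dim on both arrays, and a link between core and difference was not tested. A match of these letters is not evidence of a bound factor.

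**Figure D2:**
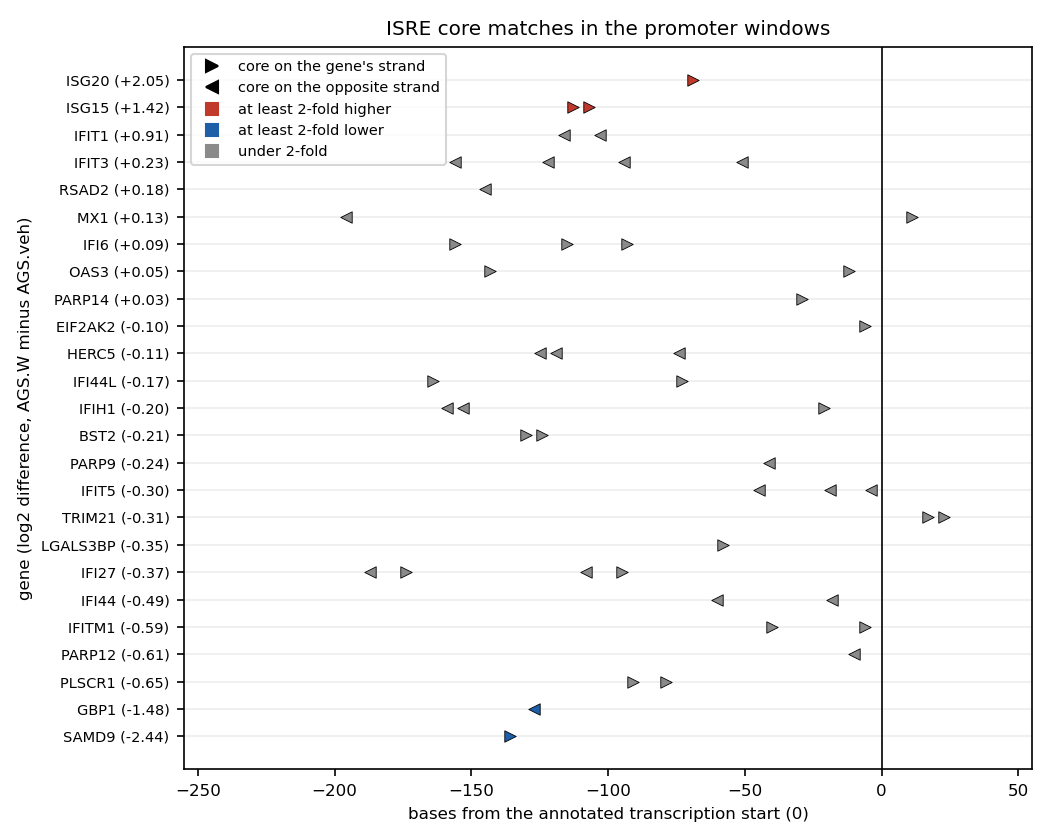
Position of each ISRE core (horizontal axis, bases from the annotated start) in the promoter windows of the 25 genes that hold one, ordered from the most negative difference (SAMD9, bottom) to the most positive (ISG20, top), with triangles pointing right for the strand of the gene and left for the opposite strand. A core can appear at several distances where a gene has several annotated starts, and cores lie from 196 bases before to 23 bases after the start in genes of either direction.

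The receptors and the transcription factors came first in the pathway, and none was 2-fold apart on its brightest probe set. IFNGR2 had a signal of 8.20 for AGS.W against 8.46 for AGS.veh, and IFNGR1 one of 6.70 and 6.64. For the type I receptor the probe sets of a gene disagreed, in sign for IFNAR1 and in size for IFNAR2. IFNAR1 was 5.64 and 5.38 on its brightest probe set, a difference of 0.26, but had -1.01 and -0.54 on other probe sets above the array medians. A dim probe set of IFNAR1 had 0.30. IFNAR2 had -0.03 on a probe set of the _x_at type, whose probes can match other sequences. Its other probe sets had -0.69 and, on one of the _s_at type, -0.71. The mean over probe sets was -0.25 for IFNAR1 and -0.47 for IFNAR2. The probe sets of IFNAR1 went both ways, so a direction cannot be given for IFNAR1. Of the factors, IRF7, which amplifies the production of interferon, had signals of 5.89 for AGS.W against 5.15 for AGS.veh, a difference of 0.73. IRF9, the DNA-binding partner of the STAT proteins in the type I response, had 5.93 and 5.36, a difference of 0.58. IRF1, a factor of the interferon gamma response, was lower on both of its probe sets, with -0.27 and -0.53, and its competitor IRF2 had 3.80 and 3.79, below the array medians.

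ISG20, an exonuclease that degrades single-stranded RNA, had the largest positive difference of the list. Its signal was 8.62 for AGS.W against 6.57 for AGS.veh, a 4.15-fold higher value, and a second probe set gave 8.32 and 6.46, a difference of 1.86 against 2.05. Both probe sets lay above the array medians on both arrays, and ISG20 stood at rank 22 from the highest of the 19775 genes. In the same group of enzymes that act on viral RNA, no other gene was 2-fold apart. OAS1, OAS2, OAS3 and OASL, which belong to the family of oligoadenylate synthetases that detect double-stranded RNA, had differences from -0.22 to 0.33. EIF2AK2, the kinase PKR that halts translation, had signals of 7.45 and 7.55, and its 3 probe sets ran from -0.10 to -0.06.

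ISG15, the ubiquitin-like protein that is attached to other proteins during the response, was 2.68-fold higher in AGS.W. Its only probe set, of the _s_at type, had a signal of 10.75 for AGS.W against 9.33 for AGS.veh, at rank 82 from the highest. The enzyme genes grouped with ISG15 in this list did not share this difference. HERC5, the ligase that attaches it, had 6.65 and 6.76, USP18, the protease that removes it, had 4.49 and 4.23, and HERC6, a relative of HERC5, had 3.64 and 4.19. ISG15 thus differed by 1.42 on the log2 scale, where these genes ran from -0.55 to 0.25. The lower end is that of HERC6, which lay below the median in AGS.W and had -0.17 with that signal raised to it.

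The IFIT proteins, which bind viral RNA that lacks the cap marks of the cell's own messages, were higher for 3 of 4 genes. IFIT1 had the largest difference, with 5.66 for AGS.W against 4.75 for AGS.veh, or 0.91, just short of 2-fold. IFIT2 had 0.41 and 0.57 on its probe sets and IFIT3 0.23 and 0.03, while IFIT5 was lower on both, with -0.30 and -0.70. The genes lie together on chromosome 10, where the adjacent IFIT1 and IFIT5 pointed in opposite directions. The cytoplasmic sensors of viral RNA differed little, with 0.16 for DDX58 (now RIGI), -0.20 for IFIH1, which lay below the array medians, and 0.15 for DHX58.

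**Figure D3:**
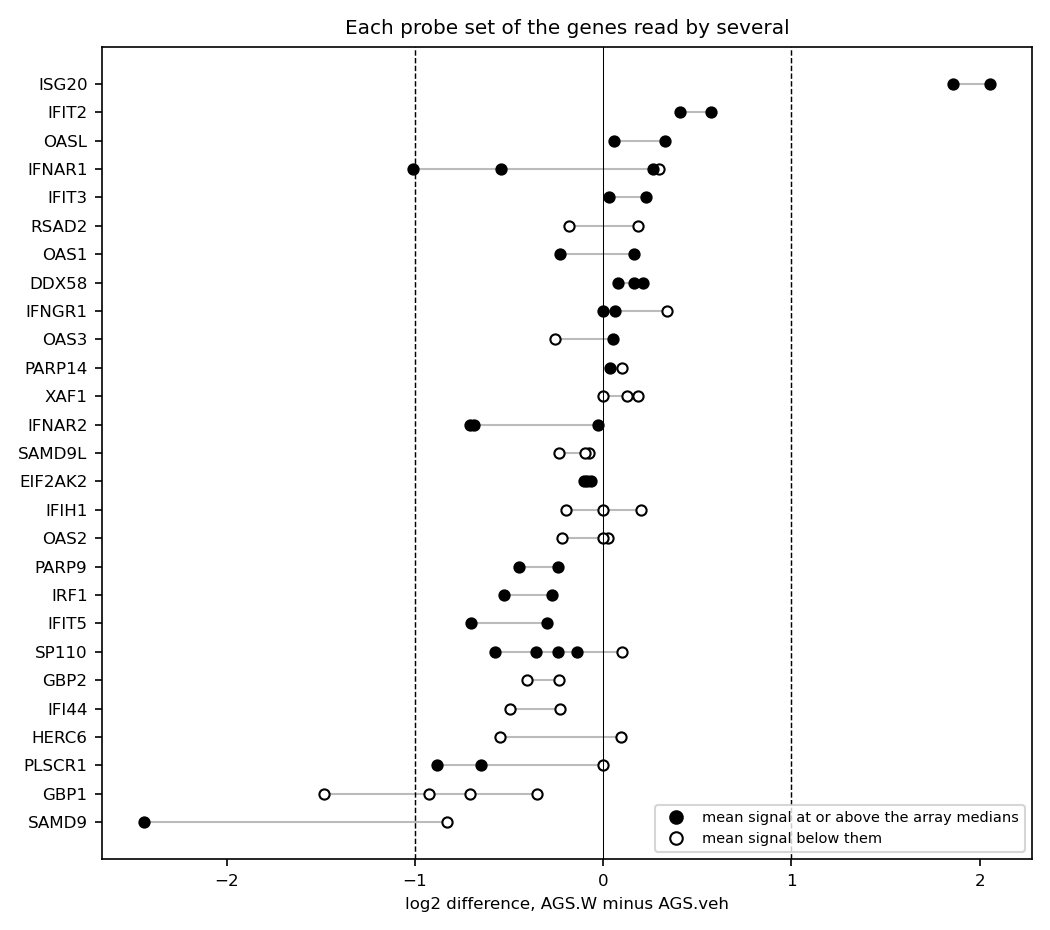
Log2 difference AGS.W minus AGS.veh (horizontal axis) of every probe set of the 27 genes read by several, with filled points for probe sets whose mean signal reached the array medians, open points for dimmer ones and dashed lines at 2-fold. The 2 points of ISG20 lie close together near 2, the points of EIF2AK2 nearly coincide, and those of IFNAR1 lie on both sides of 0.

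SAMD9 had the largest negative difference of the 48 genes. Its signal was 3.42 for AGS.W against 5.86 for AGS.veh, which is 5.41-fold lower, and the value in AGS.W lay below the median of that array, where a signal may be background. With that signal raised to the median the difference on this probe set was -1.84, or 3.57-fold lower, which is not a bound for the gene. A second probe set, dimmer on both arrays, had 3.18 and 4.01, a difference of -0.83, so both pointed the same way but differed in size. SAMD9L, its neighbour on chromosome 7, lay below the medians on all 3 of its probe sets, with signals between 2.49 and 2.88 and differences from -0.23 to -0.08. SAMD9L was thus already dim in AGS.veh, and a lower level in AGS.W could not have been measured for it.

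GBP1 and TRIM22 were the other genes at least 2-fold lower, and both were dim on both arrays. GBP1, a GTPase that coats intracellular bacteria and is a classical target of interferon gamma, had 1.85 for AGS.W against 3.33 for AGS.veh on a probe set of the _x_at type. Its other probe sets, also below the medians on both arrays, had -0.93, -0.71 and -0.35. TRIM22, an antiviral ubiquitin ligase, had 2.23 and 3.38 on its only probe set. With both signals raised to the array medians neither gene differed, so these values are not a measured size of a difference. GBP2, next to GBP1 on chromosome 1, had 2.63 and 3.03, and MX1 and MX2, dynamin-like GTPases that trap viral particles, were likewise below the medians, with differences of 0.13 and 0.18.

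The membrane and secreted proteins were lower in AGS.W for 4 of 5 genes, by less than 2-fold. PLSCR1, a phospholipid scramblase, had 7.33 for AGS.W against 7.98 for AGS.veh, a difference of -0.65, and -0.88 on a second probe set. IFITM1, which hinders the fusion of viruses with the membrane, had 5.22 and 5.81, and BST2, or tetherin, which holds budding virus at the surface, had 8.83 and 9.04. The secreted protein LGALS3BP had 4.57 and 4.92. RSAD2, or viperin, was higher on one dim probe set by 0.18 and lower on the other by -0.18.

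Among the TRIM, PARP and nuclear body genes 5 of 6 were lower. The ADP-ribosyltransferase gene PARP12 had 6.65 for AGS.W against 7.26 for AGS.veh, a difference of -0.61, PARP9 had -0.24 and PARP14 had 0.03. The intracellular antibody receptor TRIM21 had -0.31. Of the 5 probe sets of SP110, a nuclear body protein, 4 were lower, by -0.57 to -0.14. Of the IFI genes, IFI35 had -0.53 with signals of 6.88 and 7.41, IFI27 had -0.37 with 4.14 and 4.50, and IFI6 had 0.09 with 6.84 and 6.75. IFI44 and IFI44L, neighbours on chromosome 1 that are often used to score a type I response, lay below the medians on both arrays, with differences of -0.49 and -0.17. XAF1, a partner of the apoptosis inhibitor XIAP, was at 2.75 on both.

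**Figure D4:**
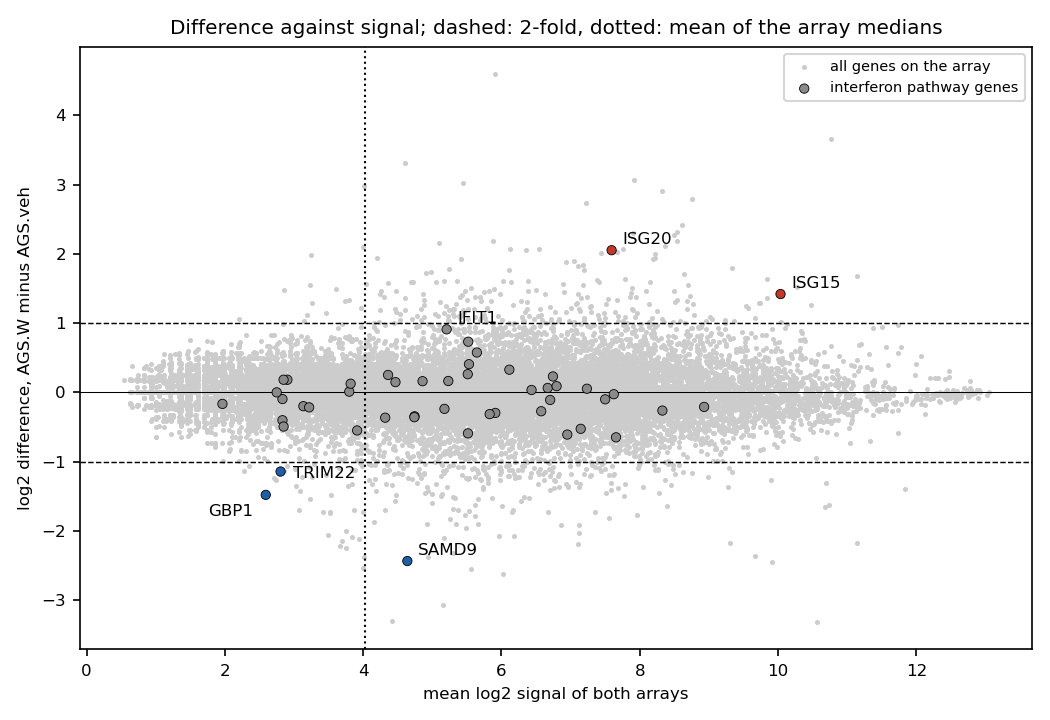
Log2 difference AGS.W minus AGS.veh (vertical axis) against the mean log2 signal of both arrays (horizontal axis) for all 19775 genes (light grey) and the 48 interferon genes (large points). ISG20 and ISG15 lie above the upper dashed line of 2-fold at mean signals well above the array medians, SAMD9 lies below the lower one near the dotted line of the array medians, and GBP1 and TRIM22 lie to its left.

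Probe sets of the same gene gave the one measure of error within these arrays. For 15 of the genes 2 or more probe sets had a mean signal at or above the array medians, and their differences spanned a median of 0.23 on the log2 scale, up to 1.27 for IFNAR1. Over the 5833 genes of the array with several such probe sets the median span was 0.27. All such probe sets pointed the same way for 12 of the 15 genes and for 57.1% of the 5833 genes. The exceptions were IFNAR1 and OAS1, with probe sets on both sides of 0, and IFNGR1, with 0.00 and 0.06. A probe set equal on both arrays, as in IFNGR1, counted against agreement here, which lowers both shares. The differences of ISG20, ISG15, IFIT1, IRF7, PLSCR1, PARP12, IFITM1 and IRF9, among others, were larger than 0.27. Those of OAS3, EIF2AK2, IFI6, PARP14 and HERC5, among others, were smaller than it. As a median, 0.27 is exceeded by the spans of many genes, so it is not the error of a single difference. ISG15, IFIT1, IRF7, PARP12, IFITM1 and IRF9 have 1 probe set each and no span of their own. This spread is between probe sets and not between cultures.

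Further genes of the pathway were taken from lists that hold no member, of 105 genes in all, and 96 had a probe set of their own. Of these, 1 was at least 2-fold higher, or 1.04% against 1.22% of all genes, and 2 were at least 2-fold lower, or 2.08% against 1.35%. Both shares lay near those of all genes, and the median difference was 0.00. The 13 measured interferon genes themselves, such as IFNB1 with 1.68 and 1.92 and IFNG with 2.23 on both arrays, all lay below the array medians. The receptor kinase JAK1 had 8.36 for AGS.W against 8.90 for AGS.veh, a difference of -0.54, and TYK2 had -0.06. The receptor gene IFNLR1 of the same list went the other way, with 6.52 for AGS.W against 5.59 for AGS.veh. This is a difference of 0.94, where its other probe set had 0.09. SOCS3, a feedback inhibitor of JAK kinases, was 2.31-fold higher with 6.98 and 5.77, but its other probe sets ran from -0.24 to 0.55. ADAR, an RNA editing enzyme with an interferon-inducible form, had 9.14 and 9.31.

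The 2-fold lower genes of these lists were IFI16 and GBP3. IFI16, a nuclear sensor of DNA, had signals of 4.59 for AGS.W against 6.36 for AGS.veh, and all 3 of its probe sets were lower, by -2.01, -1.76 and -1.75. GBP3, next to GBP1 on chromosome 1, had 4.63 and 5.76, a difference of -1.13, above the medians on both arrays. The guanylate-binding genes GBP1, GBP2, GBP3, GBP4 and GBP5 were all lower on their brightest probe sets, GBP4 and GBP5 by -0.20 and -0.33 on dim ones, although other probe sets of these last genes were higher, by 0.22 and 0.02. Of the 39 other interferon-stimulated genes measured, 13 were higher, or 33.3% against 44.7% of all genes. In the other direction 22 were lower, or 56.4% against 45.1%. GBP3 alone was 2-fold apart on its brightest probe set. On a dimmer probe set SHFL had 5.27 for AGS.W against 4.14 for AGS.veh, and RNF213 had 5.02 and 3.38, differences of 1.14 and 1.64. Their brightest probe sets had 0.31 and 0.15. The chemokine gene CXCL10 had 3.48 and 4.46, below the median in AGS.W.

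Genes for presenting peptides on MHC class I molecules, which interferon gamma raises in many cells, were higher in AGS.W for 10 of 14 measured genes, where 44.7% of all genes were higher, with a median difference of 0.33. HLA-B had 11.56 for AGS.W against 10.85 for AGS.veh, as HLA-C had 11.51 and 10.83. All 13 probe sets of HLA-B, HLA-C, HLA-E and HLA-F were higher, by 0.58 to 1.58. Of these, 11 are of the _x_at type and can read several of these closely related genes, so the genes are not separate observations. The other 2, of HLA-E and HLA-F, gave 0.71 and 1.58. These 4 HLA genes are all counted among the 10. The peptide transporter gene TAP1 had a difference of 0.46 and the proteasome subunit gene PSMB9 one of 0.45, while PSMB10 had -0.51. The other lower genes were NLRC5 with -0.32, TAP2 with -0.16 and ERAP2 with -0.24 on a dim probe set. TAPBP counted as higher with 0.55, but its other probe sets had -0.21 and -0.40. None of the 14 was 2-fold apart on its brightest probe set.

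**Figure D5:**
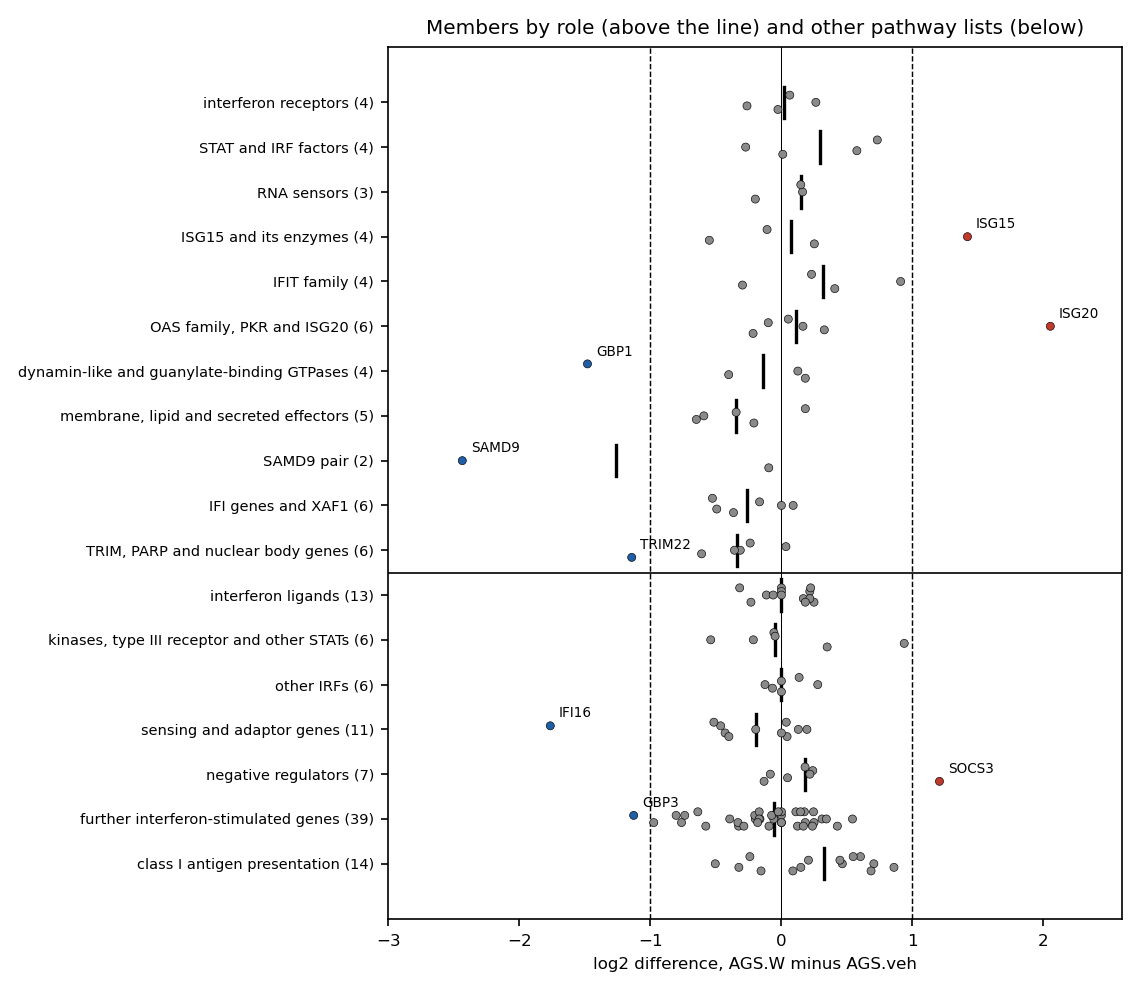
Log2 difference AGS.W minus AGS.veh (horizontal axis) of each gene by role for the 48 genes (above the line) and by list for the 96 other pathway genes (below it), with the number of genes in parentheses, black bars at the medians and dashed lines at 2-fold. Class I antigen presentation has its median to the right of 0 at 0.33, and ISG20, ISG15 and SOCS3 on the right and SAMD9, IFI16, GBP1, TRIM22 and GBP3 on the left are the genes outside 2-fold.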

How the data were processed

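RNA of AGS.W and AGS.veh was hybridised to 1 Affymetrix U133 Plus 2.0 array each. The deposited log2 signals per probe set had been normalized between the arrays by the authors. The labels list RMA and MAS5 without a role, and the background correction is not given in the sources used here. Nothing was renormalized. After 62 control probe sets were left out, 41091 probe sets belonged to a single gene by the platform annotation (dated 2016). Symbols were updated through RefSeq identifiers (GRCh38.p14), except for 54 probe sets. For each gene the probe set of highest mean signal was taken, without a signal filter. The fold threshold of 2 is that of the study's methods, whose FDR needs replicates. The members and lists were chosen with earlier results of these data known. Every member was to be named or covered by a range, with up to 3 genes per direction from each other list among those at least 2-fold apart, and JAK1, TYK2 and ADAR always. CXCL10, IFNLR1, SHFL, RNF213, GBP4, GBP5 and the class I genes were named after their values were seen. Alternatives were other scalings, other ways to choose probe sets, signal filters and fold thresholds. The procedure was checked on simulated arrays with known differences. Their noise was smaller than the spread of the differences seen here, all probe sets of a gene shifted alike, and no background floor was set. The check therefore covers the code and not the reliability of the differences. The number of arrays and the signal over background limit the precision. The scripts ran under Python 3.11.15 with pandas 2.3.3, matplotlib 3.10.9, statsmodels 0.14.6 and numpy 2.4.6.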

Additional observations from a re-analysis of the deposited data

How the results depend on the processing

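No paired analysis was possible because AGS.W and AGS.veh were measured once each, which also precluded leaving out replicates. Subtracting array medians, quantile normalization and a lowess curve of span 0.3 left the counts at 2 genes higher and 3 lower. Without _x_at and _s_at probe sets, 40 genes were left, with 1 higher, 1 lower and a median difference of 0.00. With dim signals raised to the array median, SAMD9 had -1.84, 1 gene was lower and the median was -0.0040. As the mean of its probe sets SAMD9 had -1.63. As the mean of all probe sets of each gene, 2 genes were lower. With the probe set of largest difference, the median of the genes was -0.21 and 4 genes were lower, since IFNAR1 then had -1.01 in place of 0.26. For the 34 genes of mean signal at or above the array medians, the median was 0.0039, with 1 gene lower, SAMD9, which passed through AGS.veh alone. For the 17 genes with a mean signal at or above 6, the median log2 difference was -0.027, with 0 genes lower. At 1.5-fold, 4 genes were higher and 6 lower, and at 3-fold 1 and 1. On the strand of the gene alone, 16 genes held an ISRE core. Of 328 alternative values of single genes, 309 moved by less than the spread of the 1000 genes nearest in signal. Many could not move, since 21 genes have 1 probe set, for which the mean and the largest difference are the same value. None of the 5 genes past 2-fold on its brightest probe set took the opposite sign. With dim signals raised, however, GBP1 and TRIM22 kept only the offset between the array medians, -0.0040, from which no direction is read. ISG15 and TRIM22 had no value without _x_at and _s_at probe sets. The values that moved came from the choice of probe sets or from raising dim signals.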
